A study of Mus musculus with 40 samples.

Results

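The genes described here encode the proteasome, and were chosen by name: every array probe whose gene symbol starts with Psma, Psmb, Psmc, Psmd, Psme, Psmf or Psmg. This took in 67 of the 25697 probes, for 45 of the 16593 genes that carried a symbol. By role they were 7 alpha ring and 7 constitutive beta ring genes of the 20S core, 3 immunoproteasome beta genes, 6 ATPase and 10 non-ATPase genes of the 19S cap, 3 chaperones that help build the base of the cap, 2 interferon-induced activators (PA28), 2 other activators and 3 chaperones that help build the core. The last 2 genes, Psmc3ip and Psme3ip1, share the letters only and are not subunits.

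The proteasome degrades proteins that carry a ubiquitin chain. The 19S cap binds and unfolds the substrate with its ring of ATPases and feeds it into the 20S core, a barrel of alpha and beta rings whose beta subunits Psmb5, Psmb6 and Psmb7 cut the chain. Interferon induces the replacement subunits Psmb8, Psmb9 and Psmb10, which form the immunoproteasome, and the PA28 activator encoded by Psme1 and Psme2, and the peptides produced are loaded on MHC class I. When proteasome activity is short, the transcription factor NRF1, encoded by Nfe2l1, induces the subunit genes through antioxidant response elements. The acinar cells of the pancreas make large amounts of secreted enzymes, and misfolded copies are returned from the endoplasmic reticulum to the proteasome.

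RNA from pancreas samples of 40 male C57BL/6 mice, born to C57BL/6J dams and killed at 9 weeks of age after a short fast, was hybridised to beadchips with 1 array per animal. The diets were low in fat and high in carbohydrate (LF) or high in fat and low in carbohydrate (HF). Each dam received 1 of them from before mating until its pups were weaned at day 21, and the pups then continued on LF or HF. The 4 groups of 10 animals are written with the diet of the dam first: LF_LF, LF_HF, HF_LF and HF_HF. The mice were born in 12 cages, of which 6 held LF dams and 6 held HF dams.

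Values are signal intensities, quantile normalized by the authors and not background subtracted, so a dim probe understates a fold change. The median of an array was 63 or just below. Testing was limited to probes that exceeded this median in 20 or more of the 40 arrays, 12246 probes of 8858 genes, among them 52 proteasome probes of 39 genes. The genes without a tested probe were Psma1, Psma6, Psmc3ip, Psmc6, Psmd1 and Psmd9. Log2 differences come with their standard error (SE), and a probe was called at an adjusted p under 0.05 in limma, with Benjamini-Hochberg correction over all tested probes. All 12 acinar marker genes on the array were tested. Array LF_LF 1 stood apart from the other 39 in its mean distance from the median array, and the summed intensity of its 5 tested T and NK cell markers (of 15 on the array) was 2819.4, where no animal of the other groups exceeded 666.5.

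The first question was whether the diet after weaning changed proteasome RNA. With LF dams 11 of the 12 tested core genes had a lower mean on HF, with a median log2 difference of -0.11, and with HF dams 10 of 12 were lower, with a median of -0.09. None of the 12 was called with LF dams, and Psma7 and Psmb7 were called with HF dams. Over all 8858 genes the medians were 0.00, and 4441 and 4425 genes were lower. The 14 tested subunits of the cap had medians of 0.01 with LF dams and 0.00 with HF dams, and 5 and 8 of them were lower. The difference between core and cap was not tested. By mean rank on the array the dimmest cap gene stood at 60.4% and the dimmest core gene at 88.5%. Differences of the dimmer cap genes are therefore understated more. In bulk tissue, fewer cells of a type and less RNA per cell cannot be told apart.

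The offspring of LF dams and of HF dams are different animals, and the comparisons share no array. The core genes lower in both were Psma2, Psma4, Psma5, Psma7, Psmb1, Psmb3, Psmb4, Psmb5, Psmb6 and Psmb7, which is 10 of 12, while 30.4% of all genes were lower in both. By its brighter probe Psmb2 was slightly higher in both, and Psma3, an alpha ring gene, was lower with LF dams and higher with HF dams. For the second probe of Psmb2, 3 HF-fed animals lay below the lowest LF-fed animal with either dam diet. There 0 LF-fed animals with LF dams and 1 with HF dams lay above the highest HF-fed animal. Of the 14 cap genes 4 were lower in both (Psmc3, Psmd8, Psmd12 and Psmd13), 5 were higher in both and 5 had opposite signs. These are counts of genes measured on the same arrays, which are not independent, and no test was made over the list.

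**Figure D1:**
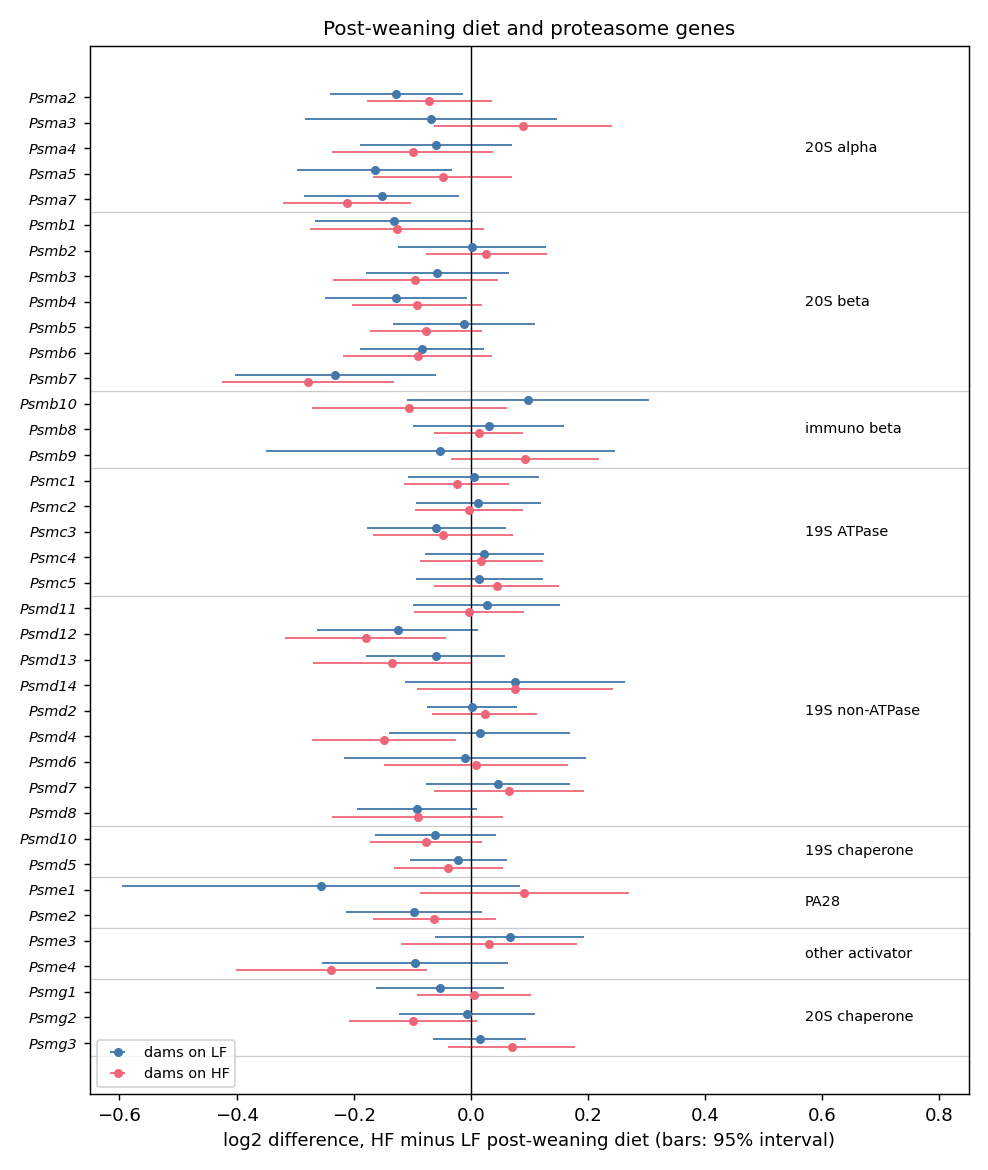
Log2 difference between the HF and the LF post-weaning diet (x axis; points, with 95% intervals as bars) for each tested gene except Psme3ip1, grouped by role, in offspring of LF dams (blue) and of HF dams (red; n = 10 animals per diet and dam). Points of the 20S core lie mostly left of 0, with Psmb7 farthest to the left among them, and points of the 19S cap lie on both sides.

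The mean over the 12 core genes, taken per animal as the log2 deviation from each gene's mean over 40 arrays, ran from -0.08 to 0.12 in LF_LF (median 0.06) and from -0.16 to 0.05 in LF_HF (median -0.04). It ran from -0.05 to 0.22 in HF_LF (median 0.03) and from -0.14 to 0.14 in HF_HF (median -0.06). The groups overlapped. In LF_LF and HF_LF 2 animals each lay below 0, against 7 in LF_HF and 8 in HF_HF. HF_HF 7 was the highest animal of its group, and HF_LF 2 the highest of all. The same mean over the 14 cap genes had medians between -0.02 and 0.03 in the 4 groups.

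**Figure D2:**
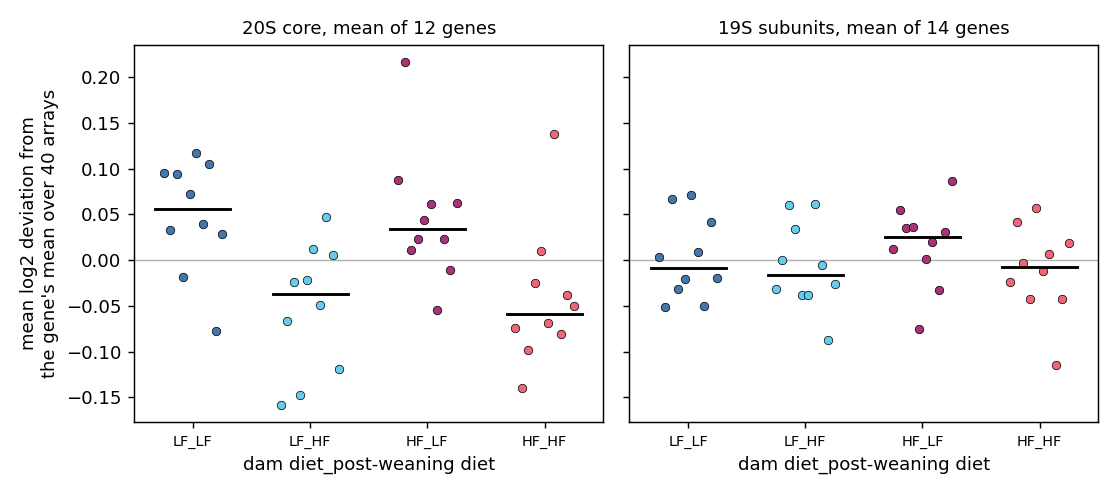
Mean log2 deviation per animal (y axis) over the 12 tested genes of the 20S core (left) and the 14 tested subunits of the 19S cap (right), by group; each point is an animal and the line is the median of 10. In the core panel the HF-fed groups have medians of -0.04 and -0.06 and the LF-fed groups 0.06 and 0.03, and in the cap panel all 4 medians lie between -0.02 and 0.03.

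Tested gene by gene, few members passed. In the offspring of LF dams no proteasome probe was called, where 5 of all probes (0.0408%) were. There 7 proteasome probes had an unadjusted p under 0.05 in limma (13.5%, against 8.95% of all probes), all in core genes, and a Cyber-T style test, which draws each variance toward that of probes of like intensity, also called 0. In the offspring of HF dams 4 probes of 2 genes fell, both probes of Psma7 and 2 of the 3 of Psmb7. Of all probes 2.24% were called there and 1.19% were called lower, and 19.2% of proteasome probes had an unadjusted p under 0.05, against 17.6% of all. On the average of both dam diets 6 probes of 3 genes fell, all 3 of Psmb7, both of Psma7 and 1 of Psmd12, where 5.22% of all probes were called and 2.47% were called lower. None rose. The Cyber-T style test called 0 proteasome probes with HF dams and 5 on the average, and the shares of all probes called above are those of limma, not of this test. On the average 10 of the 16 core probes had an unadjusted p under 0.05 (62.5%, against 19.1% of all), and 3 of the 17 cap probes (17.6%). The 16 core probes stand for 12 genes. The 10 include all 3 probes of Psmb7 and both of Psma7, and probes of the same gene are not independent.

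Psmb7 encodes the beta subunit with the trypsin-like activity. Its brightest probe read 286.5 to 416.1 in LF_LF (median 391.2) and 246.7 to 364.7 in LF_HF (median 325.3). With HF dams it read 352.0 to 489.7 in HF_LF (median 402.2) and 270.4 to 405.7 in HF_HF (median 331.3). All 10 LF_HF animals and 9 of the 10 HF_HF animals lay below the median of the LF-fed animals of the same dam diet, and 7 HF_HF animals lay below the lowest HF_LF animal, so the groups still overlapped. LF_LF 1 was the lowest of its group.

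The log2 difference of this probe was -0.23 with LF dams (SE 0.083, adjusted p = 0.351 in limma) and -0.28 with HF dams (SE 0.071, adjusted p = 0.0419), and on the average -0.25 (SE 0.055, 1.19-fold lower, adjusted p = 0.00412). The second probe read medians of 351.6 in LF_LF, 286.4 in LF_HF, 349.2 in HF_LF and 312.3 in HF_HF, and fell by 0.27 on the average (SE 0.050, adjusted p = 0.00109 in limma); its difference of -0.25 with LF dams had the smallest p of any member there (p = 0.00145, adjusted p = 0.22 in limma). The third read medians of 180.5, 162.6, 179.9 and 159.4 in the same order, and fell by 0.16 (SE 0.039, adjusted p = 0.0086 in limma). The 3 probes thus had the same order of medians by post-weaning diet, although their deviations from the group means correlated only moderately (r from 0.16 to 0.56 over the same 40 arrays).

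Psma7 encodes a subunit of the alpha ring, which gates the entrance to the core. Its brighter probe read 259.4 to 361.4 in LF_LF (median 313.9), 237.0 to 313.6 in LF_HF (median 276.8), 269.1 to 353.9 in HF_LF (median 322.1) and 248.4 to 317.6 in HF_HF (median 274.8). All 10 HF-fed animals lay below the LF-fed median with either dam diet, and the ranges overlapped. The log2 difference was -0.15 with LF dams (SE 0.064, adjusted p = 0.461 in limma), -0.21 with HF dams (SE 0.053, adjusted p = 0.0388) and -0.18 on the average (SE 0.040, 1.13-fold lower, adjusted p = 0.00484). The other probe, with medians of 299.6, 269.8, 318.2 and 266.5 in the order above, fell by 0.21 with HF dams (adjusted p = 0.0348) and by 0.16 on the average (adjusted p = 0.00426 in limma).

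Psmd12 encodes a non-ATPase subunit of the lid of the cap. Its brighter probe read 183.4 to 288.0 in LF_LF (median 240.4), 192.2 to 231.4 in LF_HF (median 223.6), 222.8 to 303.5 in HF_LF (median 264.6) and 176.8 to 261.9 in HF_HF (median 239.8). All 10 animals of each HF-fed group lay below the median of their LF-fed counterpart. It fell on the average by 0.15 on the log2 scale (SE 0.047, 1.11-fold lower, adjusted p = 0.0472 in limma), with differences of -0.12 and -0.18 with LF and HF dams (adjusted p = 0.624 and 0.155). The second probe of Psmd12 lay near the array median, was above it in 21 arrays, and had an average difference of 0.02 (adjusted p = 0.88 in limma).

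**Figure D3:**
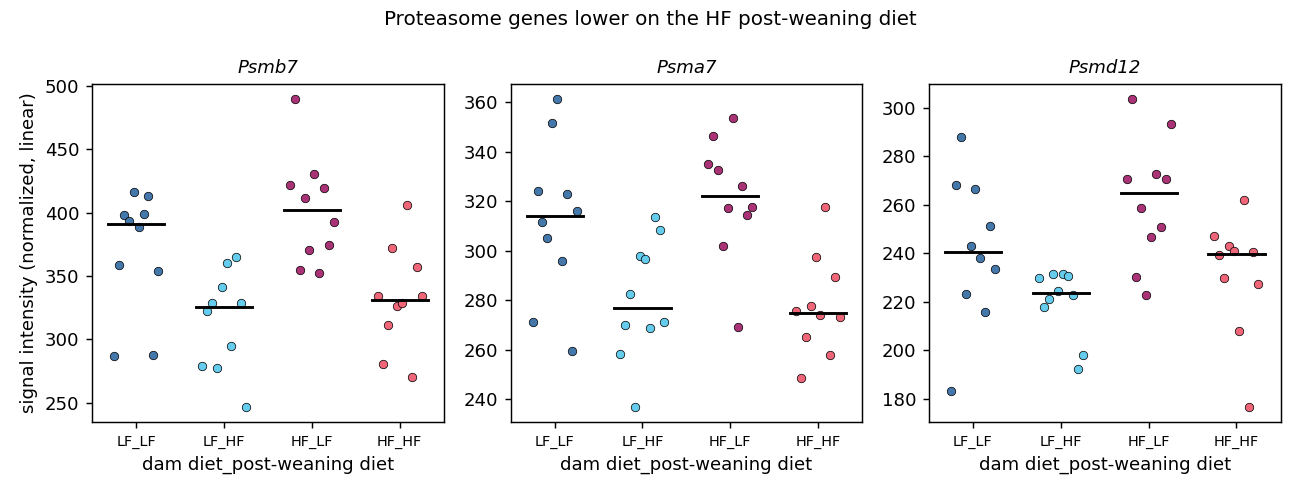
Signal intensity (linear, y axis, not starting at 0) of the brightest tested probe of Psmb7, Psma7 and Psmd12 in the 4 groups; each point is an animal (10 per group) and the line is the group median. The HF-fed groups have the lower median on either dam diet, for Psmb7 325.3 against 391.2 and 331.3 against 402.2, with overlapping ranges.

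The promoters of Psma7 and Psmd12 are shown because both fell on the average and because NRF1 is known to act through the antioxidant response element. RefSeq's table on GRCm38.p6, which gives 250 bases before to 50 after a gene's start, matched 37 of the 43 subunit and cofactor genes, and Psmb1, Psmb2, Psmb7, Psmc3, Psmd7 and Psmg2 were not among them. The core of the element, TGACNNNGC, searched on both strands in the first promoter listed for a gene, stands in capitals. Psma7 lies on the minus strand at chr2:180042415-180042714 and Psmd12 on the plus strand at chr11:107479278-107479577, both written in the direction of the gene.
Psma7: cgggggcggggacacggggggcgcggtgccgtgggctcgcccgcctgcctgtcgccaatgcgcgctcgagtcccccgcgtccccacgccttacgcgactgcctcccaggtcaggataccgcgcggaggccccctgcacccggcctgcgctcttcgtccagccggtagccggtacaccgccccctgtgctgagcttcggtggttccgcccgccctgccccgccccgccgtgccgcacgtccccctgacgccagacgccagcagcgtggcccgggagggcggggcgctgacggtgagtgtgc
Psmd12: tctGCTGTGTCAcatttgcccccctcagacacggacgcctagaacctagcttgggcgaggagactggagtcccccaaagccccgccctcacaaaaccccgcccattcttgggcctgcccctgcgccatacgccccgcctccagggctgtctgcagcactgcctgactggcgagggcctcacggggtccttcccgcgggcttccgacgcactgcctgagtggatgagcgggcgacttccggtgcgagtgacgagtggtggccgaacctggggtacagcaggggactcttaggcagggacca
The element was matched 1 time in the Psmd12 window and not in the Psma7 window. Among the 37 genes it was matched in 6 (16.2%), namely Psmb5, Psmb6, Psmc6, Psmd12, Psmd9 and Psme4, against 12.5% of the 27025 genes in the table.

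The calls differed in how they held. Psmb7 passed on the average without each of the 40 arrays and without each of the 12 cages (highest adjusted p 0.0417). Psma7 passed without each array and without each cage but cage 4 (adjusted p = 0.0531). Psmd12 passed without 12 of the 40 arrays and without cages 1, 6, 8 or 9, with adjusted p up to 0.0839 over the arrays and 0.187 over the cages. The 4 calls with HF dams became 0 when HF_LF 2, 6, 8, 9 or 10 or HF_HF 2, 3, 6, 8 or 10 was left out, 1 without HF_LF 1 or 4, and 2 without HF_HF 1. They became 0 without cage 1, 10, 21 or 23 and 1 without cage 12, that one of Psmd4. How many of all probes were called in each of these runs is not given here. A loss of calls particular to these genes therefore cannot be told from a loss over the whole array.

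Animals of a cage were raised together, and 5 of the 12 cages held animals on both diets. Within these cages the mean log2 of HF-fed animals was below that of LF-fed animals in 5 of 5 for each probe of Psmb7, in 4 and 5 of 5 for the probes of Psma7, and in 5 of 5 for the brighter probe of Psmd12. For the second probe of Psmd12 it was below in 1 of 5, with differences from -0.24 to 0.42. The uncalled genes Psmc3, Psmd13 and Psme4 were also lower in 5 of 5, while 1 probe of Psmd7 and 1 of Psmg2 were higher in 5 of 5. These cages hold animals of the fits above, so the counts are not separate evidence, and the share over all probes was not computed. For the second probe of Psmb7 the difference within a cage ran from -0.34 to -0.16. With the cage as a fixed block the average difference of the brightest Psmb7 probe was -0.26 (adjusted p = 0.0752 in limma), 1 proteasome probe was called on the average, of Psmb7, and none with HF dams (51 of all probes called). With the cage as a random block the counts stayed at 6 and 4. The share of all probes called was not set beside the counts with the random block or beside the fixed-block count on the average.

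**Figure D4:**
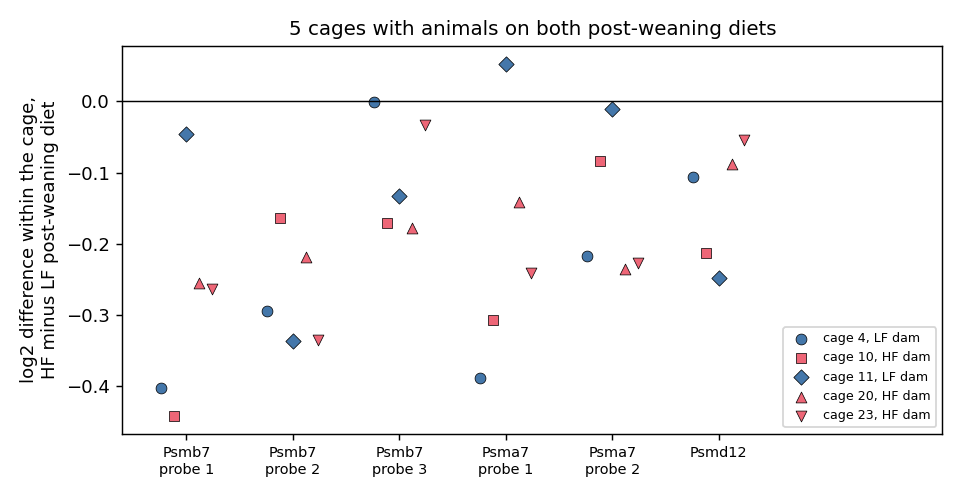
Log2 difference between HF-fed and LF-fed animals of the same cage (y axis) for each probe of Psmb7 and Psma7 and the brighter probe of Psmd12; each symbol is 1 of the 5 cages that held both diets (1 to 3 animals per diet). All points lie below 0 except cage 11 for the first probe of Psma7, at 0.05.

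The other core genes did not pass the correction. On the average of both dam diets the lowest adjusted p among them in limma were those of Psmb4 (log2 difference -0.11, SE 0.038, adjusted p = 0.0787) and Psma2 (-0.10, SE 0.035, adjusted p = 0.0916), followed by Psmb1 (-0.13, SE 0.048, adjusted p = 0.114). Psmb5, the chymotrypsin-like subunit, read medians of 136.2 in LF_LF, 137.3 in LF_HF, 136.4 in HF_LF and 128.2 in HF_HF, within 108.3 to 154.8 over all animals (-0.04, SE 0.037, adjusted p = 0.569). Psmb6, the caspase-like subunit, read medians of 463.6, 436.8, 461.1 and 423.8 in the same order, within 361.4 to 512.5 (-0.09, SE 0.039, adjusted p = 0.195). Whether the differences of the 3 catalytic genes differ from each other was not tested. In the cap, besides Psmd12, the lid genes Psmd13 (-0.10, SE 0.043, adjusted p = 0.187) and Psmd8 (-0.09, SE 0.043, adjusted p = 0.231 in limma) had an unadjusted p under 0.05. The activator Psme4 (PA200) read medians of 498.6, 449.3, 549.6 and 473.9 and had an average difference of -0.17 (SE 0.056, adjusted p = 0.0709 in limma). Psme4 lay below the LF-fed median in 9 of 10 LF_HF and 10 of 10 HF_HF animals.

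Markers of other cell types also differed in level, and several of these differences rested on 1 array. With HF dams all 12 tested myeloid markers had a higher mean on HF (median 0.18), and without HF_HF 5, left out after seeing the data like the other single arrays here, 11 of 12 were higher (median 0.06). There 5 of 6 adipocyte markers were higher (median 0.34, and 0.25 without HF_HF 5) and 7 of 9 hepatocyte markers were lower (median -0.39, and -0.37 without it). With LF dams 9 of 12 myeloid and 6 of 6 adipocyte markers were lower (adipocyte median -0.21), but without LF_LF 1 this held for 3 of 12 and 3 of 6 (adipocyte median -0.02). There 8 of 9 hepatocyte markers were higher (median 0.32), and 5 of 9 without LF_HF 1 (median 0.00). Of the 5 tested T and NK cell markers 4 were lower with LF dams (median -0.20), and 2 without LF_LF 1 (median 0.07). With HF dams 2 of these 5 were lower (median 0.05).

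Of the 12 markers of acinar cells 8 were lower with LF dams (median -0.02) and 5 with HF dams (median 0.04). These markers lay at the top of the array, with a median mean rank of 99.93% and a lowest of 96.5%. Quantile normalization leaves such probes little room to differ, so their small medians say little about acinar content. Of the 7 tested markers of islet cells 6 were lower with LF dams (median -0.15) and 5 with HF dams (median -0.01), and without HF_HF 5 the latter were 2 (median 0.03). None of the markers of these cell types was called with LF dams or with HF dams. On the average of both dam diets 1 of the 12 acinar markers was called, where 5.22% of all probes were. There 6 acinar markers were higher and 6 lower (median 0.01). The part of the adipocyte, hepatocyte, acinar and islet markers in the core differences was not tested. With the mean of 17 myeloid, T and NK cell genes as a covariate the median core difference with HF dams was -0.09 and 11 of 12 core genes were lower, and the brightest Psmb7 probe had an adjusted p of 0.0702 there and of 0.00292 on the average.

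The second question concerned the diet of the dam. No proteasome probe was called for it. Among offspring fed LF the share of all probes called was 0%, and 0 proteasome probes had an unadjusted p under 0.05 in limma (8.58% of all probes did). Among offspring fed HF the share of all probes called was again 0%, and 5 proteasome probes had an unadjusted p under 0.05 (9.62%, against 6.21% of all). On the average of both post-weaning diets 8 of all probes (0.0653%) were called, and 5 proteasome probes had an unadjusted p under 0.05 (9.62%, against 9.66% of all). The Cyber-T style test called no proteasome probe in any of these 3 comparisons. Of the 39 tested genes 19 were lower with HF dams in either pair of groups.

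Among offspring fed LF the smallest p belonged to Psmg2, a chaperone of core assembly, whose brighter probe read 113.8 to 149.6 in LF_LF (median 132.2) and 127.3 to 165.6 in HF_LF (median 143.9), with medians of 129.2 in LF_HF and 135.3 in HF_HF (log2 difference 0.09, SE 0.052, adjusted p = 0.631 in limma). Its second probe correlated with it at r = -0.03 over the same 40 arrays. The interaction between the diets called none of all probes (0%) and 1 proteasome probe had an unadjusted p under 0.05 in limma, the dimmer probe of the ATPase gene Psmc5, with medians of 151.1 in LF_LF, 147.9 in LF_HF, 149.2 in HF_LF and 159.9 in HF_HF (0.14, SE 0.064, adjusted p = 0.866). The brighter probe of Psmc5 had medians of 242.8, 245.4, 238.6 and 242.7 and an interaction of 0.03 (adjusted p = 0.975). For Psmb7 the interaction was -0.05 with an interval from -0.27 to 0.18, and for Psma7 -0.06 with an interval from -0.22 to 0.10. Both intervals included a fall that was larger with HF dams by the size of the average effect itself, so that difference was not resolved. Neither included a fall larger with LF dams by that size.

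None of the 3 immunoproteasome genes was called in any comparison. Psmb10 was bright in all animals: its brighter probe read 1684.7 to 3439.1 in LF_LF (median 2722.1), 2268.4 to 3384.3 in LF_HF (median 2716.6), 2268.4 to 3024.5 in HF_LF (median 2486.0) and 1825.1 to 3024.5 in HF_HF (median 2317.8). The HF_HF median was the lowest, and 8 of 10 HF_HF animals lay below the LF_HF median. Among offspring fed HF, the log2 difference between dams was -0.25 (SE 0.087, p = 0.00738, adjusted p = 0.75 in limma), and -0.23 for the second probe (p = 0.00507, adjusted p = 0.75), the smallest p of any member in that comparison. The second probe read medians of 2212.3, 2194.2, 2094.4 and 1825.1 in the order LF_LF, LF_HF, HF_LF and HF_HF, and on the average of both feeds differed by -0.16 between dams (adjusted p = 0.303). Neither passed the correction.

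Psmb8 and Psmb9 lay close to the array median, above it in 22 and 38 of the 40 arrays. Psmb8 read medians of 60.8 in LF_LF, 65 in LF_HF, 64.5 in HF_LF and 64.6 in HF_HF, and its average difference on the post-weaning HF diet was 0.02 (SE 0.037, adjusted p = 0.814 in limma). Psmb9 read medians of 67.3, 70.8, 66.5 and 69.2 (0.02, SE 0.082, adjusted p = 0.929). At such levels the unsubtracted background makes up most of the signal, and a change of the RNA would show only in part. Psme1, the alpha subunit of PA28, read medians of 133.7, 125.1, 126.3 and 133.6, and Psme2, the beta subunit, 92.0, 89.3, 90.9 and 90.5. Psme1 ran from 107.7 to 454.4 over all animals and had the widest spread of all members, an SD within groups of 0.33 on the log2 scale. It also had the largest difference in 3 comparisons, none called in limma: -0.26 on HF with LF dams (SE 0.165, adjusted p = 0.704), -0.20 with HF dams in LF-fed offspring (SE 0.172, adjusted p = 0.755) and an interaction of 0.35 (SE 0.195, adjusted p = 0.866). These rested on LF_LF 1: without it, an alternative chosen after seeing the data, they were -0.08 (SE 0.046), -0.02 (SE 0.071) and 0.17 (SE 0.102). Psme2 ran from 71 to 107.5 and had an average difference of -0.08 (SE 0.038, adjusted p = 0.238).

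**Figure D5:**
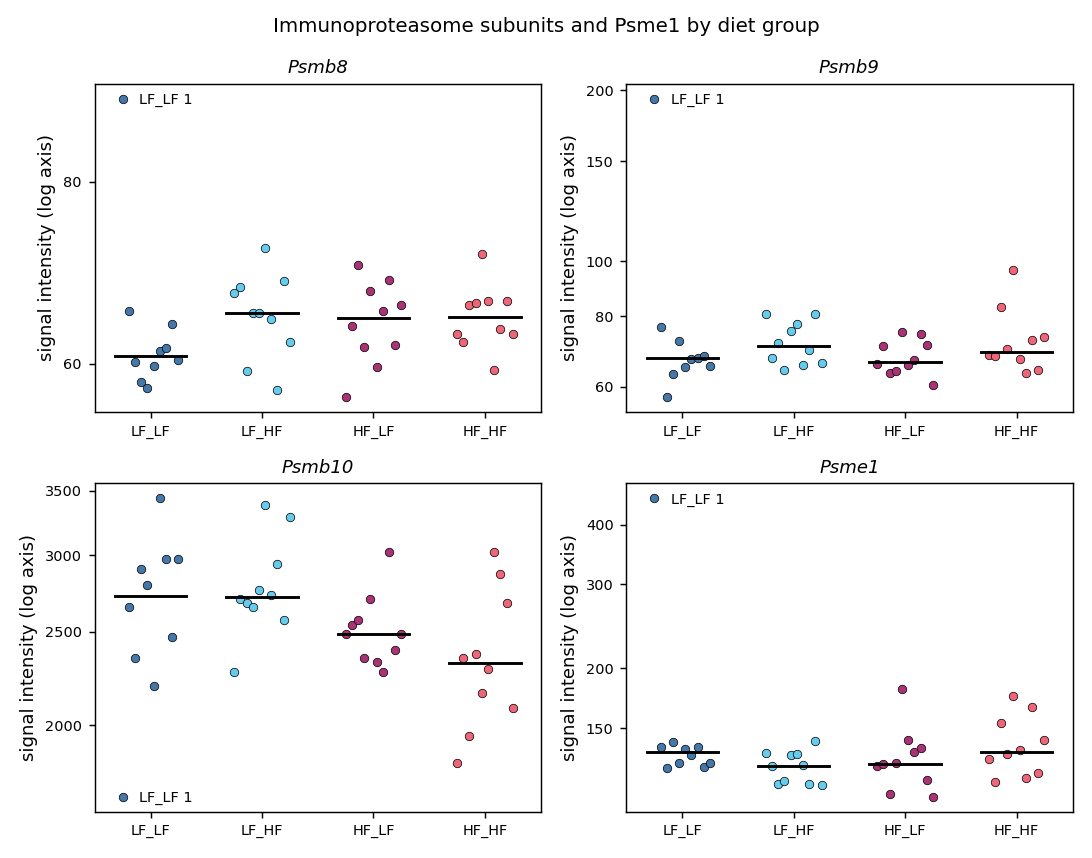
Signal intensity (y axis, logarithmic) of the brightest tested probe of Psmb8, Psmb9, Psmb10 and Psme1 by group; each point is an animal, the line is the median of 10, and the animal LF_LF 1 is labelled. LF_LF 1 is the highest of its group for Psmb8 (91.3), Psmb9 (193.3) and Psme1 (454.4) and the lowest for Psmb10 (1684.7).

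The spread of Psme1 and Psmb9 followed single animals. LF_LF 1 read 454.4 for Psme1, where the other LF_LF animals read at most 140.1, and 193.3 for Psmb9, where they read at most 76.5. HF_HF 5 was the highest of its group for Psme1 (175.2), Psmb8 (71.4) and Psmb9 (96.5). These animals were also high in leukocyte and adipocyte markers: LF_LF 1 had a mean of 1.04 over the 12 tested myeloid markers (of 14 on the array), as log2 deviation from the overall mean, and HF_HF 5 had 1.39. Over the 6 tested adipocyte markers their means were 2.12 and 0.78. The summed intensity of the T and NK cell markers ran from 406.5 to 2819.4 in LF_LF, 387.6 to 561.3 in LF_HF, 380.7 to 469.1 in HF_LF and 388.5 to 666.5 in HF_HF, with the highest values in LF_LF 1 and HF_HF 5. The part of these markers in the levels was not tested. Over the 40 arrays, as deviations from the group means, Psme1 and Psmb9 correlated at r = 0.92 with each other and at 0.91 and 0.93 with the T and NK cell mean, and at 0.61 and 0.63 with that mean without LF_LF 1 and HF_HF 5. With the adipocyte mean Psme1 and Psmb9 correlated at 0.73 and 0.75 (0.50 and 0.56 without the pair). With the myeloid mean they correlated at 0.73 and 0.77 (0.61 and 0.64 without the pair). With the mean of the interferon-induced genes the values were 0.77 and 0.75 (0.54 and 0.43 without the pair). With that of the antigen presentation genes they were 0.79 and 0.79 (0.57 and 0.45 without it). Psmb8 correlated with the T and NK cell mean at 0.83 (0.52 without the pair), and Psmb10 at -0.51 (-0.14 without it). Psmb10 correlated at -0.39 with Psmb8 and at -0.51 with Psmb9. These correlations between genes, and that of Psme1 with Psmb9, were not computed without the pair. LF_LF 1 was the lowest of its group for Psmb10 and the highest for Psmb8 and Psmb9. All these values share the same arrays and are given as descriptions.

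Psmb8 and Psme1 are known interferon targets, and their promoters are shown with the matches to 2 interferon motifs in capitals. The motifs were the gamma interferon activation site, TTCNNNGAA, and the core of the interferon stimulated response element, GAAANNGAA, searched on both strands. Psmb8 lies on the plus strand at chr17:34197945-34198244 and Psme1 on the plus strand at chr14:55578244-55578543.
Psmb8: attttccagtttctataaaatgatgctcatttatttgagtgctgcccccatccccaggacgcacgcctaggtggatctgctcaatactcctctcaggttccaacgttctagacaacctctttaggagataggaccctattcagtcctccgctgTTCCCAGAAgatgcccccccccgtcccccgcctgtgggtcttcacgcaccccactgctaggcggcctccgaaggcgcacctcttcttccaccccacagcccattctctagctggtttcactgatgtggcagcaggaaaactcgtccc
Psme1: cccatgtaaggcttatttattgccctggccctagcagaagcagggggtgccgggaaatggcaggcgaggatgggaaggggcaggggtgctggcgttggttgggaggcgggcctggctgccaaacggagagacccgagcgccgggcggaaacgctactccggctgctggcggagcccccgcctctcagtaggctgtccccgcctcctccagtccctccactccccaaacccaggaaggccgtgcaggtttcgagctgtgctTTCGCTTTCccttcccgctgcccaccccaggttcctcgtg
The first motif was matched in 3 of the 37 genes (8.11%; Psmb8, Psmd2 and Psmg1) and in 8.47% of all genes in the table. The second was matched in 5 (13.5%; Psmb3, Psmb4, Psmd4, Psmd9 and Psme1) and in 8.57% of all. In the first windows of Psmb9, Psmb10 and Psme2 these letters were not matched.

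Deviations of subunit genes from animal to animal were described by pairwise correlation. Over the 325 pairs of the 26 tested core and cap subunits, deviations from the group means had a median correlation of 0.04 (from -0.64 to 0.82, n = 40 arrays), against 0.00 for all pairs of tested genes. Single pairs were tight, among them Psmd6 with Psmd14 (r = 0.82), Psma3 with Psmd14 (0.81), Psma2 with Psmb3 (0.78) and Psmb7 with Psma7 (0.75). Psmb7 and Psma7, both called lower on HF, thus also deviated together within the groups. These values share arrays and are descriptions.

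Outside the members, the pathway was followed through lists of related genes. Of 7 tested genes of the NRF1 pathway, 1 was called with HF dams and on the average, Nfe2l1 itself, which rose, where 2.24% and 5.22% of all probes were called. Nfe2l1 read 146 to 193.7 in HF_LF (median 164.9) and 177.7 to 231.1 in HF_HF (median 198.2), against 165 to 233.5 in LF_LF (median 176.7) and 168.7 to 230.2 in LF_HF (median 193.6). The rise was 0.28 on the log2 scale with HF dams (SE 0.057, 1.22-fold, adjusted p = 0.0152 in limma) and 0.19 on the average (SE 0.043, adjusted p = 0.00486). Nfe2l1 is expressed in all tissues and its protein is regulated mainly after translation, which was not measured. With HF dams its call was lost without 2 of the 6 cages (adjusted p up to 0.103) and with the cage as a fixed block (adjusted p = 0.0813 in limma), and on the average it passed in every alternative run.

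None of the 7 tested proteasome genes outside the prefixes, 5 ubiquitin, E1 and shuttle genes and 11 interferon-induced genes was called for the post-weaning diet. Of 9 antigen presentation genes Pdia3, which encodes a disulfide isomerase of the peptide loading complex, was called and fell, with HF dams and on the average, where 2.24% and 5.22% of all probes were called. It read 531.2 to 592.2 in HF_LF (median 564.1) and 462.1 to 553.4 in HF_HF (median 492.4), a fall of 0.18 on the log2 scale (SE 0.045, adjusted p = 0.04 in limma), with medians of 514.1 in LF_LF and 480.1 in LF_HF and an average fall of 0.12 (adjusted p = 0.0184).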

How the data were processed

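RNA from pancreas samples of 40 male mice had been hybridised to Illumina MouseRef-8 beadchips, with 1 array per animal. Animals were grouped by maternal and post-weaning diet as given in the labels. The values the authors deposited are linear signal intensity, exported with BeadStudio (version not stated) and quantile normalized over the 40 arrays, without background subtraction; the sorted values of the arrays differ by at most 1.86%. No detection p-values or slide positions were used here. Probe names come from the platform annotation (23978 probes with 1 symbol, 1719 with none).

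Intensities were taken to log2 and compared with limma (version 3.58.1, R 4.3.3; moderated test with intensity trend, two-sided), in 4 pairwise fits of 20 arrays each and, in a fit of all 40, for the average of each diet and the interaction. The code was tested on simulated data. A gene with several tested probes is represented by the brightest. The precision is limited by the 10 animals per group, and p-values over animals take no account of shared cages.

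The members and gene lists were chosen with earlier results of these data known. Levels are given for every called member, the catalytic and PA28 genes, and the member with the smallest p and the largest difference in each fit; Psme4, Psmb1, Psmb4, Psma2, Psmd8 and Psmd13 were named after their values were seen. Alternatives were all arrays in 1 fit, no trend, a Cyber-T style test (settings assumed), no filter, a filter at the upper tercile, cyclic loess, background subtraction (5th percentile of each array, offset 16), weighting of arrays, omission of the array that stood apart, cage as a block, leukocyte covariates, and leaving out each cage or array. Figures were drawn with matplotlib 3.10.9 in Python 3.11.15.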

Additional observations from a re-analysis of the deposited data

Results flagged for a closer look

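Among 48 tested group and gene combinations (12 genes in 4 groups of 10 animals), 4 held an animal far from the rest of its group. The combinations share animals and are not independent, as LF_LF 1 was the animal in each one flagged in its group. The count was therefore not set against chance. LF_LF 1 read 454.4 for Psme1 (next 140.1), 193.3 for Psmb9 (next 76.5) and 91.3 for Psmb8 (next 65.2). HF_LF 5 read 181.2 for Psme1 (next 141.3).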

How the results depend on the processing

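Under every alternative run, counts of called proteasome probes stayed at 0 for both maternal comparisons, their average, the interaction and the post-weaning diet with LF dams. With HF dams the count of 4 became 0 with the Cyber-T style test, with no filter and with the cage as a fixed block, 2 with the leukocyte mean as covariate, and 0 to 4 when a cage or array was left out. On the average the count of 6 became 1 with the cage as a fixed block, and was 4 to 8 when a cage or array was left out and 5 to 9 under the other settings. Adjusted p for Psmd12 on the average was 0.0663 with the Cyber-T style test, 0.102 with no filter and 0.0512 with background subtraction. Without LF_LF 1 and HF_HF 5, an alternative chosen after seeing the data, 3 probes were called with HF dams and 8 on the average. The counts under these alternatives are given without the share of all probes called in the same setting. On the average the core median ran from -0.11 to -0.08 over all alternatives, with 10 to 12 of 12 genes lower. The cage as a fixed block could not be fitted for maternal diet, since each cage had 1 dam diet. By replicate number no paired analysis was possible because the labels give none, and the cage served as the block instead. Precision is limited by 10 arrays per group, and values are relative after quantile normalization.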
